A study of Mus musculus with 12 samples.

Results

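The transcripts of 10 keratin genes, Krt5, Krt6a, Krt7, Krt8, Krt14, Krt15, Krt17, Krt18, Krt19 and Krt20, were followed through 4 groups of 4T1 cells, a cell line from a mouse mammary carcinoma. The genes were chosen by name, as luminal and basal keratins, and each matched 1 of the 22880 features in the deposited count table. The mock cells were transfected with the plasmid pcDNA3.1 and the MYBup cells with pcDNA3-mMyb, which carries mouse Myb. The wt cells were neither transfected nor passaged. The lung3 cells were not transfected and had gone through the lung of mice 3 times. The submitters label lung metastatic activity as normal in mock and wt, low in MYBup and high in lung3 cells, and they give no animal strain or culture age. Each group has 3 libraries. The labels do not state whether the transfected lines are clones or pools, nor whether replicates are separate cultures, so the spread behind each p-value may be only technical. In bulk RNA a smaller share of cells with a keratin and less of its RNA in each cell cannot be told apart.

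Keratins are the intermediate filament proteins of epithelial cells. A filament is built from pairs of an acidic type I chain (here Krt14, Krt15, Krt17, Krt18, Krt19 and Krt20) and a basic type II chain (Krt5, Krt6a, Krt7 and Krt8). In the mammary gland Krt8 with Krt18 marks luminal cells and Krt5 with Krt14 marks basal cells, while Krt6a and Krt17 are known as keratins of stressed, wounded or rapidly growing epithelium.

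Total counts ran from 8912989 to 24745660 per library, and 11291 features were tested after a filter on low counts. Myb stood at 39.3 to 42.9 CPM (counts scaled to the library total after TMM adjustment) in the MYBup libraries and at 2.22 to 6.80 CPM in the others, as the labels say. Myb was lower in lung3 than in wt cells, at 2.71 ± 0.459 against 4.99 ± 0.742 CPM (SD, n = 3). The log2 fold change was -0.89 (SE 0.19, edgeR adjusted p = 0.01585). That call ended without wt replicate 2 or lung3 replicate 2 or 3 (adjusted p up to 0.0805). Of 6 epithelial markers, Epcam stood at 54.4 to 103 CPM, Cdh1 at 254 to 537 and Cd24a at 248 to 597 over all libraries. Cldn4 stood at 31.2 to 123 CPM. Cdh3 was at only 0.0815 to 0.416 CPM. Cldn7 was at 0.815 to 2.495 CPM in mock and MYBup libraries and at 8.63 to 15.9 CPM in wt and lung3 libraries. Of 7 lung epithelial markers, Sftpc, Sftpb, Sftpa1 and Nkx2-1 had 0 counts in every group, and the list summed to at most 1.06 CPM in any library. Host leukocyte markers summed to at most 1.38 CPM and endothelial markers to at most 0.537 CPM. The fibroblast list summed to 15.9 to 48.95 CPM, nearly all of it from Pdgfra, with Lum at 0 in every group.

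The members lie in the 2 keratin clusters of the mouse genome (GRCm38, GENCODE M21 coordinates). On chromosome 15 are Krt7 (101411043 to 101430313, plus strand), Krt6a (101689910 to 101694307, minus), Krt5 (101707070 to 101712898, minus), Krt8 (101996698 to 102004482, minus) and the type I gene Krt18 (102028180 to 102032027, plus). Krt8 and Krt18 are neighbours that point away from each other, 23.7 kb apart. On chromosome 11, all on the minus strand, are Krt20 (99428403 to 99438150), Krt15 (100131758 to 100135928), Krt19 (100140810 to 100148665), Krt14 (100203162 to 100207548) and Krt17 (100256217 to 100261029). Krt16 lies between Krt14 and Krt17.

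RefSeq (GRCm38.p6) gave promoter windows for 6 of the 10 members. The parts of the Krt8 and Krt18 windows before the first annotated exon base are shown. They were chosen because this neighbouring pair makes up most of the keratin transcripts and is the filament pair of luminal cells. Capitals mark letters of the c-Myb recognition motif, searched as CAACNG or TAACNG on both strands.
Krt8, chr15:102004483-102004592, minus strand: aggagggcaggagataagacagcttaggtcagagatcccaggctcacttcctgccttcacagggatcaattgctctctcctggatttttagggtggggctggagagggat
Krt18, chr15:102027966-102028179, plus strand: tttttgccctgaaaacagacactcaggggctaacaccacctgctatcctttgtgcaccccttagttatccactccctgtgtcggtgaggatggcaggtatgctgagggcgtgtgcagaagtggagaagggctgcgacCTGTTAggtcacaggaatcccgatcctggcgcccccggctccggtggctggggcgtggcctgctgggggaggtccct
In the 250 bases before each start site, the motif occurred 2 times for Krt18 (the second match lies inside its annotated first exon and is not shown), 1 time for Krt5 and 0 times for Krt7, Krt8, Krt14 and Krt20. For Krt7, Krt8, Krt14 and Krt18 the RefSeq start lies downstream of the GENCODE start. The Krt7 and Krt14 windows lie inside the annotated genes and do not cover the bases before the GENCODE start. The Krt8 and Krt18 windows lie partly inside, with 110 and 214 of the 250 bases before the first annotated exon base. The Krt7 window meets its first annotated exon base, of Krt7 or of the antisense gene Gm671, after 39 bases. The motif occurs in 43.1% of all 32851 RefSeq promoter windows of that length, so its presence in these windows is common.

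Keratin genes resemble each other, and reads from a shared stretch cannot be assigned to one gene. The longest identical coding stretches of Krt14 with its neighbours Krt17 and Krt16 are shown because the results below turn on these genes. The first lies in exon 6 of Krt14 (chr11:100204114-100204184) and exon 6 of Krt17, and the second in exon 1 of Krt14 (chr11:100207017-100207150) and exon 1 of Krt16, read on the minus strand. The first encodes the end of the central rod and the second the passage from the glycine-rich head into its start, and both ends of the rod are strongly conserved among keratins.
Krt14 and Krt17, 71 bases: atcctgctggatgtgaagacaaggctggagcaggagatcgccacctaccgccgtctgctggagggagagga
Krt14 and Krt16, 134 bases: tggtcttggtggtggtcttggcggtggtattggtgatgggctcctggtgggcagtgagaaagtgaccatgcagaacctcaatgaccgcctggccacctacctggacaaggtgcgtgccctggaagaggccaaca
Of the 50-base words in the longest coding transcript, 14.4% were shared with transcripts of other genes for Krt14, 3.99% for Krt17, 29.7% for Krt8 (mostly with the pseudogene Krt8-ps), 12.2% for Krt5 and 62.0% for Krt6a (mostly with Krt6b). For Krt7, Krt15, Krt18, Krt19 and Krt20 the share was at most 0.72%. The sources used here do not name the counting tool or its strand setting. Exons of Krt7 overlap an antisense gene, Gm671, by 77 bases, those of Krt8 overlap Gm36026 by 101 bases and those of Krt6a overlap Gm49428 by 471 bases, so their counts are uncertain to that extent.

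The untransfected cells had a luminal keratin make-up with a low level of Krt14 and no detected Krt5. Levels were compared between genes per length, as TPM, the length-scaled counterpart of CPM computed here from exon lengths. In wt cells Krt18 had the highest level, 1967 ± 161 TPM (SD, n = 3), followed by Krt8 at 1525 ± 122 TPM. Krt7, a type II keratin of simple and ductal epithelia, followed at 269 ± 49.1 TPM, Krt19, the smallest type I keratin, at 149 ± 10.4 TPM and Krt14 at 15.4 ± 7.97 TPM. Krt17 stood at 0.676 ± 0.497 TPM, and Krt15 at 0.0664 ± 0.115 TPM. The libraries of neighbours in this order did not overlap in wt cells, from Krt18 down to Krt15, although the last step rests on 4 to 11 counts of Krt17 and at most 2 of Krt15 per library.

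The order from Krt18 to Krt14 was the same in mock and lung3 cells. In MYBup cells Krt18 (2017 to 2109 TPM) and Krt8 (1956 to 2114 TPM) overlapped. The level of Krt7 depends on the gene model, because its annotated exons sum to 7049 bases and its principal transcript has 4094. With principal transcript lengths for the members, a choice made after seeing the data, Krt7 stood at 463 ± 84.6 TPM in wt cells. It kept its place between Krt8 and Krt19 in all 4 groups. The scaling total kept the summed exon lengths of all genes, so this value serves only to compare the members with each other. The 10 genes together took 0.204% to 0.308% of each library's counts, and Krt8 and Krt18 gave 61.1% to 82.3% of these.

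Krt5, Krt6a and Krt20 were not detectable above stray counts, and none of them was tested. Krt5, the type II partner of Krt14 in basal cells, had 1 count in MYBup replicate 3 and 0 in the other 11 libraries. A count of 0 allows up to 0.0447 CPM over the wt libraries, 0.0595 over mock and 0.0815 over lung3, taking 3 counts over the group as the floor. Krt6a had 4 counts in mock replicate 1 and 0 in the other 11 libraries. Krt20, a keratin of intestinal and urothelial cells, had 2 counts each in mock, wt and lung3 and 4 in MYBup, and each of these group totals came from 1 library. The floors and counting intervals take each read as 1 molecule, and amplification and replicate error come on top.

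**Figure D1:**
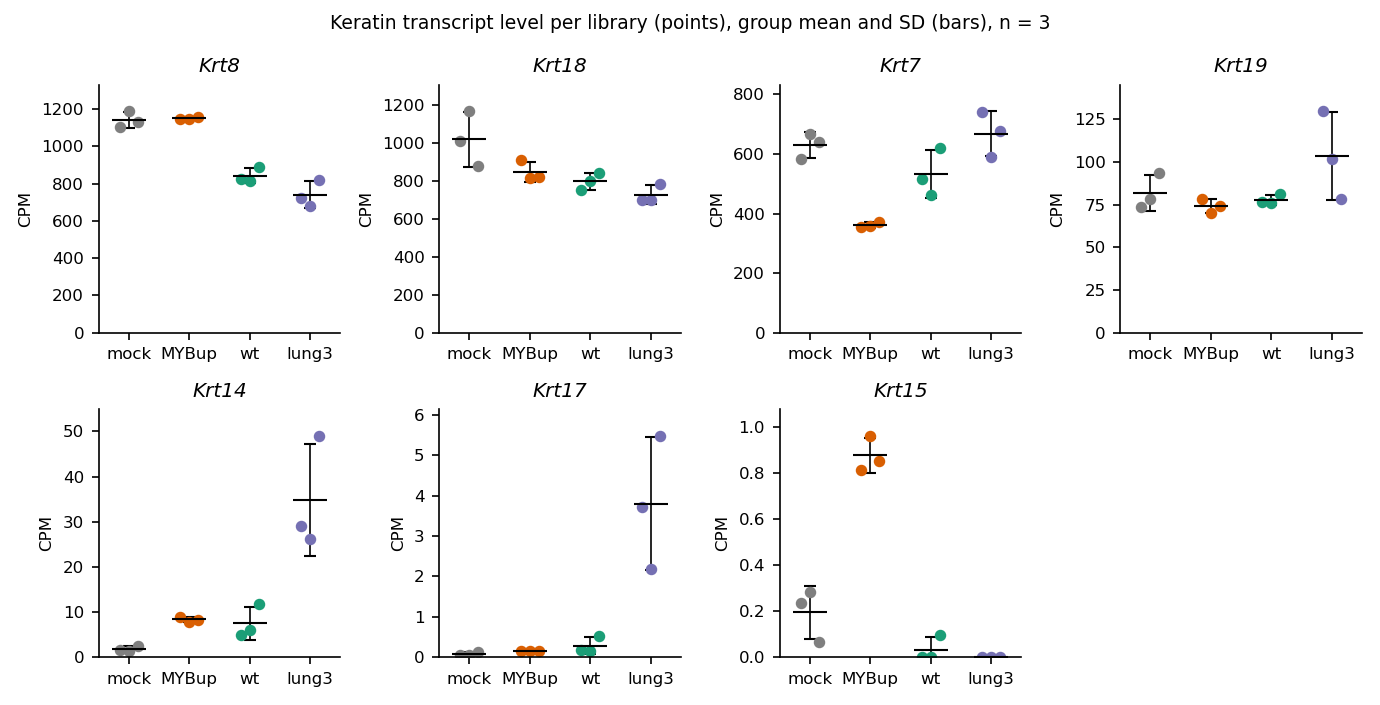
Level of 7 keratins in CPM (y axis, linear, from 0, a different scale in each panel) in the 4 groups (x axis). Each point is 1 library, and the bars give the mean and SD of 3 libraries. Krt14 and Krt17 are highest in lung3, Krt7 is lowest in MYBup, and Krt15 is highest in MYBup.

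Both plasmid-carrying lines were set against each other to see which keratins differ between them. Raised Myb cannot be told apart from other differences between these lines. MYBup cells had less Krt7 and more Krt14 and Krt15 than mock cells. Of the 7 tested keratins 2 were higher and 1 was lower, in a comparison that called 26.9% of all tested genes, 14.3% higher and 12.6% lower. Krt15 and Krt17 passed the filter through the group in which they are high, so their tested status is not independent of their pattern. Each adjusted p given here is from edgeR's quasi-likelihood test with Benjamini-Hochberg adjustment over all tested genes, with a threshold of 0.05.

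Krt7 was at 354, 357 and 373 CPM in MYBup replicates 1 to 3 and at 582.5, 667 and 641 CPM in mock. All MYBup libraries were below all mock libraries. The log2 fold change was -0.80 (SE 0.11, adjusted p = 0.00018). Against wt cells, at 517, 462 and 619.5 CPM, the MYBup libraries were also all lower (log2 fold change -0.56, SE 0.11, adjusted p = 0.0016). Mock and wt cells overlapped in Krt7 (log2 fold change 0.24, adjusted p = 0.0995). The MYBup cells thus had the lowest Krt7 of the 4 groups. Without wt replicate 3, the library with the most Krt7 of its group, mock cells were called higher than wt (0.37, adjusted p = 0.0169).

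Krt14 was at 8.88, 7.91 and 8.37 CPM in MYBup and at 1.61, 1.36 and 2.55 CPM in mock libraries. The groups did not overlap, and the log2 fold change was 2.19 (SE 0.38, adjusted p = 0.00109). The mock cells were the ones that stood apart from untransfected cells: wt libraries had 4.86, 6.15 and 11.7 CPM, the change from wt to mock was -2.04 on the log2 scale (SE 0.38, adjusted p = 0.0011), and MYBup against wt had 0.15 (SE 0.31, adjusted p = 0.732). MYBup libraries lay within the range of the wt libraries. These comparisons share libraries, so they are not independent of each other.

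Krt15, a basal keratin of stratified epithelia and hair follicle, had 10, 13 and 16 counts in MYBup libraries, 5, 4 and 1 in mock, 0, 0 and 2 in wt and 0 in all lung3 libraries. All MYBup libraries were above those of every other group, but even there the level was only 0.876 ± 0.0759 CPM (SD, n = 3). Against mock cells the ratio of count sums was 4.41 with an exact 95% counting interval from 2.16 to 9.91 (log2 fold change 2.10, SE 0.53, adjusted p = 0.0123). Against wt cells it was 29.4 (7.60 to 251, adjusted p = 0.000449). Mock against wt, with 10 and 2 counts, had a ratio of 6.65 (1.42 to 62.5) and was not called (adjusted p = 0.0568). It was called without wt replicate 3 (0.0174), which holds both wt counts, without mock replicate 3 (0.0331), and with limma voom (0.0124). With 0 counts in lung3, where the floor is 0.0815 CPM over the group, the level of Krt15 in MYBup cells was 10.75 times that floor. The exact 95% counting interval of the ratio of 39 to 0 counts starts at 8.33. Krt19, the next gene on the chromosome, 4.88 kb away, did not follow this order: it was at 73.7, 78.1 and 93.5 CPM in mock and 78.3, 70.0 and 74.1 CPM in MYBup libraries, which overlapped (log2 fold change -0.14, SE 0.15, adjusted p = 0.509).

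**Figure D2:**
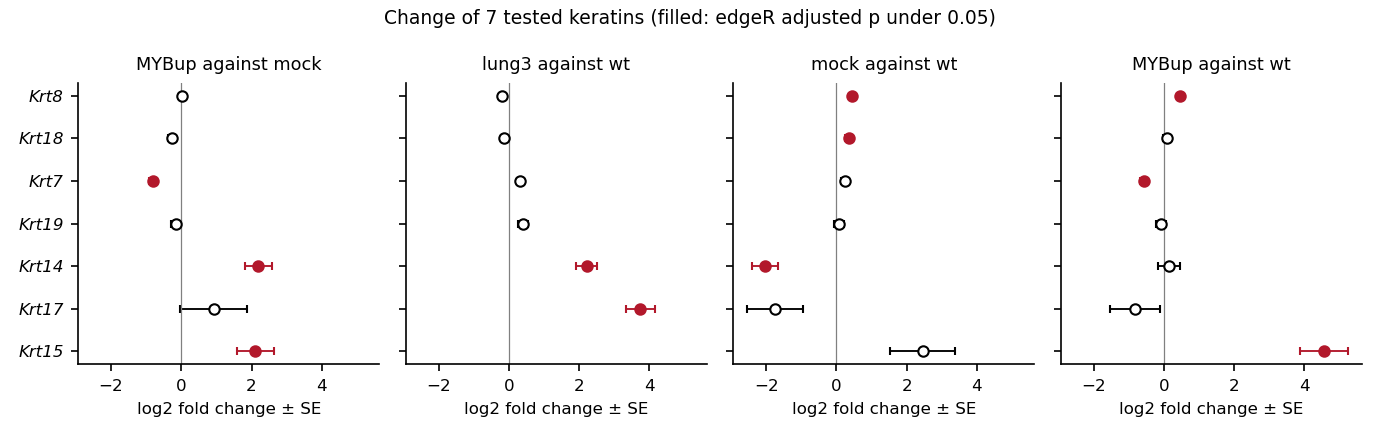
Log2 fold change with SE (x axis) of 7 tested keratins (y axis) in 4 comparisons of 3 against 3 libraries. Filled points have an edgeR adjusted p under 0.05. Krt14 lies near 2 in MYBup against mock and in lung3 against wt and near -2 in mock against wt. Krt15 is left out in lung3 against wt, which holds 0 and 2 counts.

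Of the luminal pair, Krt8 was higher in both plasmid-carrying lines than in wt cells and Krt18 was called higher in mock cells but not in MYBup cells. Krt8 was at 1102, 1189 and 1131 CPM in mock, 1147, 1149 and 1157 in MYBup, 825, 813 and 887 in wt and 723, 679 and 821 in lung3 libraries. All 6 libraries of the transfected lines were above all 6 untransfected ones. The log2 fold change against wt was 0.44 in mock (SE 0.08, adjusted p = 0.00104) and 0.45 in MYBup (SE 0.08, adjusted p = 0.000837), while MYBup against mock had 0.01 (SE 0.08, adjusted p = 0.926).

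Krt18 was at 1007, 1166 and 878 CPM in mock, 907.5, 812 and 820 in MYBup, 753, 798 and 840 in wt and 697, 699 and 784 in lung3 libraries. Mock libraries were all above wt libraries (log2 fold change 0.35, SE 0.10, adjusted p = 0.0156), and this call ended without mock replicate 2 (0.25, adjusted p = 0.0535) or wt replicate 1 (0.31, adjusted p = 0.0662). MYBup overlapped both mock and wt libraries. Its log2 fold change against mock was -0.26 (SE 0.10, adjusted p = 0.0673; 0.0167 without mock replicate 3, and 0.04 with DESeq2) and that against wt 0.09 (adjusted p = 0.52). The ratio of Krt8 to Krt18 counts was 1.26 to 1.41 in MYBup libraries, 1.02 to 1.29 in mock, 1.02 to 1.10 in wt and 0.971 to 1.05 in lung3. Mock replicate 3, the library with the least Krt18 of its group, gave the highest mock ratio and overlapped the MYBup libraries.

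Between mock and wt cells, 2 of 7 tested keratins were higher (Krt8 and Krt18) and 1 was lower (Krt14), where 35.9% of all tested genes were called, 18% higher and 17.9% lower. Between MYBup and wt cells, Krt8 and Krt15 were higher and Krt7 was lower, where 38.2% were called, 19.4% higher and 18.7% lower. Krt19 was not called in either, with log2 fold changes of 0.07 (SE 0.14) and -0.07 (SE 0.14). Krt15 passed the filter only through its MYBup counts, so its place among the tested keratins is not independent of its higher level there.

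The other main contrast set cells after lung passage against the unpassaged line. The lung3 cells had more Krt14 and Krt17, and the level of the luminal pair was not called different. Of the 7 tested keratins 2 were higher and 0 were lower, where 5.36% of all tested genes were called, 2.91% higher and 2.44% lower. Krt17 passed the filter only through its lung3 counts, so its place among the 7 is not independent of its higher level there. Krt14 was at 29.1, 26.2 and 49.0 CPM in lung3 libraries against 4.86, 6.15 and 11.7 in wt, a mean of 34.8 ± 12.4 against 7.59 ± 3.66 CPM (SD, n = 3). The groups did not overlap, and the log2 fold change was 2.21 (SE 0.29, adjusted p = 0.00104). The highest library of both groups was replicate 3. Lung3 libraries had more Krt14 than any library of the other 3 groups.

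Krt17 had 51, 19 and 79 counts in lung3 libraries and 4, 4 and 11 in wt libraries, or 2.19 to 5.47 CPM against 0.165 to 0.528 CPM. The sums of 149 and 19 counts gave a ratio of 14.3 (exact 95% counting interval 8.83 to 24.4), and the log2 fold change was 3.74 (SE 0.40, adjusted p = 0.000253). In the transfected lines Krt17 had 1 to 3 counts per library. MYBup against mock, with 7 and 4 counts, was not called (log2 fold change 0.92, SE 0.96, adjusted p = 0.517). Mock against wt had -1.75 (SE 0.80, adjusted p = 0.103). With the replicate number as a block in the fit of 12 libraries the adjusted p was 0.0307. The labels state no pairing by number, and the check below gave mixed signs for mock and wt. Per 100 counts of Krt14 there were 11.2 of Krt17 in lung3 (9.37 to 13.2), 3.79 in wt (2.26 to 5.98), 1.88 in MYBup (0.749 to 3.90) and 4.35 in mock cells (1.16 to 11.5). These intervals are for pooled counts and hold counting error only. By library the ratio was 8.37 to 12.7 in lung3, 2.69 to 4.49 in wt, 1.83 to 1.91 in MYBup and 2.94 to 5.26 in mock cells. The part of reads shared with Krt14 in these counts was not tested.

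Krt8 was at 723, 679 and 821 CPM in lung3 and 825, 813 and 887 in wt libraries, and the ranges overlapped (log2 fold change -0.18, SE 0.08, adjusted p = 0.206). Krt18 had -0.13 (SE 0.10, adjusted p = 0.499). Krt7 was at 740, 589.5 and 676 CPM in lung3 libraries, overlapping wt, and the log2 fold change was 0.33 (SE 0.11, adjusted p = 0.1). It was called without wt replicate 3 (0.45, adjusted p = 0.0217) and with DESeq2 (0.33, adjusted p = 0.0496). Krt19 varied among lung3 libraries, at 129.9, 102 and 78.2 CPM against 76.6, 76.2 and 81.4 in wt, and had 0.41 (SE 0.14, adjusted p = 0.124). It was called without lung3 replicate 3 (0.57, adjusted p = 0.0199).

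Deviations of same-numbered lung3 and wt libraries from their group means were positively correlated (0.294 to 0.329). The labels state no pairing, and these correlations do not establish one. In a fit of these 6 libraries that held the number as a block, an alternative chosen after seeing the data, Krt7 (log2 fold change 0.33, adjusted p = 0.00684) and Krt19 (0.38, adjusted p = 0.0217) were also called higher. That fit called 4 of the 7 tested keratins, Krt14 and Krt17 included, and 17.9% of all tested genes, 8.67% higher and 9.24% lower. Krt17 again passed the filter through its lung3 counts.

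The 2 main comparisons share no library, so their changes could be set against each other directly. The change of Krt7 from mock to MYBup was lower than that from wt to lung3 (log2 difference -1.13, SE 0.15, adjusted p = 0.000337). It was the only one of the 7 tested keratins called, where 19.9% of all tested genes were, 10.4% higher and 9.52% lower. For Krt14 the difference was -0.02 with an SE of 0.59 (adjusted p = 0.985), an SE too wide to show that the changes were alike. Its sign turned in 6 of 18 alternatives. For Krt19 it was -0.55 (SE 0.20, adjusted p = 0.0777; 0.0104 without lung3 replicate 3). For Krt17 it was -2.82 (SE 1.27, adjusted p = 0.137). It was called with limma voom (0.0323) and with the replicate block of 12 libraries (0.0484). The numbers of that block do not pair mock and MYBup libraries. Krt8 and Krt18 had differences of 0.20 (SE 0.11) and -0.13 (SE 0.14).

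**Figure D3:**
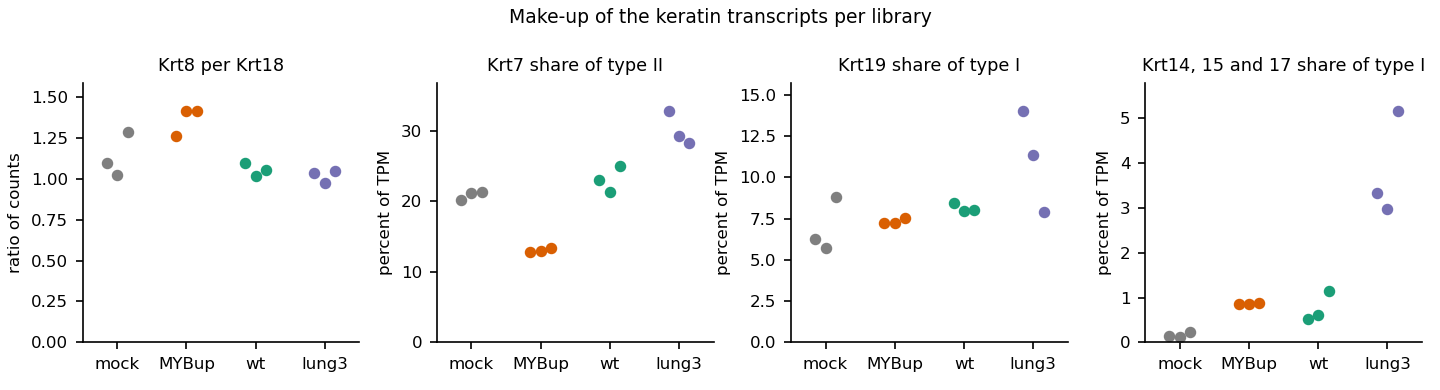
Make-up of the keratin transcripts in each library (points; x axis, the 4 groups; y axes linear, from 0). From left to right, the ratio of Krt8 to Krt18 counts, and shares in percent of the summed TPM of the type II or type I members, with principal transcript lengths. The Krt7 share is 12.9% to 13.4% in MYBup and 28.2% to 32.9% in lung3 libraries.

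The make-up of the keratin transcripts differed between the groups. With principal transcript lengths, Krt7 gave 12.9% to 13.4% of the type II transcripts in MYBup libraries, 20.2% to 21.3% in mock, 21.4% to 25.0% in wt and 28.2% to 32.9% in lung3. The groups of both main comparisons did not overlap in this share. Krt14, Krt15 and Krt17 together gave 0.117% to 0.242% of the type I transcripts in mock, 0.846% to 0.888% in MYBup, 0.518% to 1.14% in wt and 2.97% to 5.16% in lung3 libraries. Even in lung3 cells the basal members were thus a small part of the type I transcripts. The summed type II level was 0.864 to 1.10 times the summed type I level over the 12 libraries, and its group ranges overlapped in both main comparisons.

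Of the 44 other keratin genes in the table, 23 had at least 1 count and 4 were tested. Krt80, a type II keratin broadly present at low level in epithelia, was at 17.6, 18.1 and 21.6 CPM in mock, 15.6, 17.3 and 19.2 in MYBup, 44.6, 39.4 and 39.1 in wt and 59.2, 53.4 and 50.9 in lung3 libraries. Both transfected lines were below both untransfected ones, with log2 fold changes against wt of -1.10 in mock (SE 0.11, adjusted p = 1.28e-05) and -1.23 in MYBup (SE 0.11, adjusted p = 4.19e-06). In lung3 against wt Krt80 rose by 0.41 (SE 0.10, adjusted p = 0.0354). That call ended without MYBup replicate 2, lung3 replicate 1 or 2 or any 1 wt replicate (adjusted p up to 0.123), and with the replicate block of 12 libraries (0.0536). The difference between its changes in MYBup against mock and in lung3 against wt was -0.54 (SE 0.15, adjusted p = 0.0246), a call that ended without MYBup replicate 1 or 2, wt replicate 2 or lung3 replicate 1 (adjusted p up to 0.0585).

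Krt13, a type I keratin of mucosal epithelia, had 4 counts in lung3 cells, 31 in wt, 79 in mock and 130 in MYBup. Its level was 2.29 to 3.75 CPM in MYBup and 0.998 to 1.80 CPM in mock libraries. The log2 fold change against wt was 2.64 in MYBup (SE 0.34, adjusted p = 9.17e-05) and 1.72 in mock (SE 0.37, adjusted p = 0.00283). MYBup against mock had 0.92 (SE 0.30, adjusted p = 0.0367). This call ended without mock replicate 1 or 2, MYBup replicate 1 or 3 or wt replicate 1, with adjusted p up to 0.136, and with DESeq2 (0.0567). Lung3 against wt had -2.03 (SE 0.68, adjusted p = 0.103), and the difference of the 2 changes was 2.95 (SE 0.73, adjusted p = 0.013). Both Krt13 and Krt15 had their highest mean in MYBup cells, at a low level, and for Krt15, with 0 and 2 counts, no order of lung3 and wt cells can be given.

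Krt16, a stress keratin that lies between Krt14 and Krt17, was at 1.45 to 3.95 CPM in lung3 and 0.545 to 1.34 CPM in wt libraries (log2 fold change 1.34, SE 0.41, adjusted p = 0.077). It was called with the replicate block on 6 libraries (0.00314), without lung3 replicate 1 (0.0454), without the filter on low counts (0.043) and with DESeq2 (0.0423). Per 100 counts of Krt14 there were 69.6 of Krt16 in mock (exact 95% counting interval 49.8 to 96.8), 23.3 in MYBup (18.2 to 29.5), 13.6 in wt (10.4 to 17.5) and 7.2 in lung3 cells (5.79 to 8.86). The part of shared reads was not tested here either. Krt10, a keratin of cornifying epidermis, was at 1.53 to 3.79 CPM and was not called in any of the 4 comparisons between groups.

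**Figure D4:**
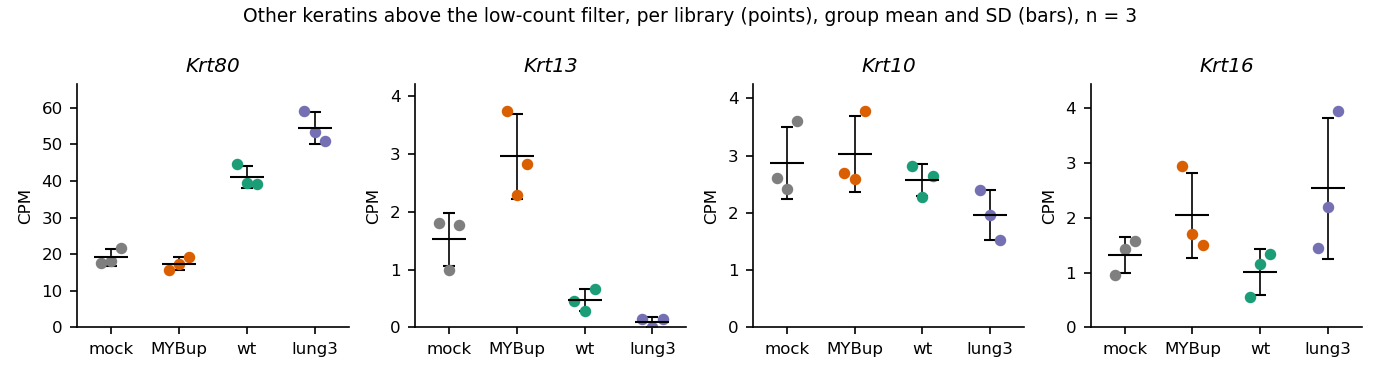
Level of the 4 other tested keratins in CPM (y axis, linear, from 0, a different scale in each panel) by group (x axis). Points are libraries, and the bars give the mean and SD of 3 libraries. Krt80 lies between 15.6 and 21.6 CPM in the transfected lines and between 39.1 and 59.2 CPM in the untransfected ones.

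Genes whose proteins anchor keratin filaments in desmosomes and hemidesmosomes moved both ways. Of 17 tested members of 22 listed, 4 were higher and 2 lower in MYBup than in mock cells. Of all tested genes 14.3% were called higher and 12.6% lower there. The median log2 fold change of the list was -0.05 against 0.00146 for all tested genes. Dsg2, a desmosomal cadherin gene, rose from 19.4 ± 3.59 to 37.4 ± 4.43 CPM (log2 fold change 0.94, adjusted p = 0.000492). Pkp2, the gene of the desmosomal plaque protein plakophilin 2, rose from 20.4 ± 2.29 to 34.2 ± 1.01 CPM. As with Krt14, the mock cells had the lowest level of both genes, with wt cells at 48.1 ± 7.52 and 39.4 ± 2.56 CPM. In lung3 against wt 2 of 17 were higher and 0 lower (median -0.20), against 2.91% and 2.44% of all tested genes. The 2 were Dsc2, by 0.96, and Dsg2, by 0.56. Both calls ended without wt replicate 1 or 2, lung3 replicate 2 or 3 or MYBup replicate 3. That of Dsc2 also ended without MYBup replicate 2 and in the fit on the compared groups alone (0.0617), and that of Dsg2 without mock replicate 1 or lung3 replicate 1, with adjusted p up to 0.162.

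Among genes of other intermediate filaments 8 of 16 were tested. In MYBup against mock 3 rose and 0 fell (median 0.27), where 14.3% of all tested genes were called higher and 12.6% lower. Vim, the gene of the mesenchymal filament protein vimentin, was at 4369 ± 277 CPM in mock, 5614 ± 70.5 in MYBup, 3296 ± 112 in wt and 2462 ± 341 in lung3 cells. Vim rose by 0.36 in MYBup (adjusted p = 0.016), a call that ended without mock replicate 1 (0.0638). It fell by 0.42 in lung3 (adjusted p = 0.0254), the only 1 of 8 called (median 0.09). Of all tested genes 2.91% were called higher there and 2.44% lower. This fall of Vim lost its call without any 1 wt replicate or without lung3 replicate 1 or 2 (adjusted p up to 0.0976). Lmna, the gene of the nuclear lamins A and C, rose by 0.46 in MYBup (adjusted p = 0.0365), a call lost without mock replicate 1 or 2 or MYBup replicate 2 or 3 (adjusted p up to 0.139) and in the fit on the compared groups alone (0.0807).

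The lineage genes that accompany these keratins in the mammary gland moved both ways in MYBup against mock. In lung3 against wt the called basal genes all rose, and the called luminal genes moved both ways. Of 22 listed basal genes 11 were tested. In MYBup against mock 1 rose and 2 fell (median 0.07), against 14.3% and 12.6% of all tested genes. Mylk, the gene of myosin light chain kinase, rose from 1.90 ± 0.0456 to 6.30 ± 0.845 CPM, with wt at 7.65 ± 1.07 CPM. Egfr, the gene of the epidermal growth factor receptor, fell from 2.93 to 0.847 CPM on average (log2 fold change -1.72, adjusted p = 0.00205). In lung3 against wt 3 basal genes rose and 0 fell (median 0.25), against 2.91% and 2.44% of all tested genes. Egfr rose from 4.88 ± 1.08 to 10.6 ± 2.50 CPM (log2 fold change 1.11, adjusted p = 0.0142) and lost its call without wt replicate 2 or lung3 replicate 2 (adjusted p up to 0.0669). Lama3, a laminin chain gene of the epithelial basement membrane, rose by 0.95 (adjusted p = 0.0226) and lost its call without wt replicate 1 or 3 or lung3 replicate 2 (adjusted p up to 0.114). In mock against wt 1 basal gene rose and 6 fell (median -0.32), against 18% and 17.9% of all tested genes. Of 17 tested luminal genes 6 rose and 6 fell there (median 0.02).

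Of 24 luminal genes 17 were tested. In MYBup against mock 2 rose and 4 fell (median -0.12), against 14.3% and 12.6% of all tested genes. Among the 4 were the luminal transcription factor gene Foxa1 (log2 fold change -1.03, adjusted p = 0.0091) and the tight junction gene Cldn4 (-0.86, adjusted p = 0.00319). Foxa1 was low throughout, at 3.219 ± 0.3461 CPM in mock, 1.553 ± 0.151 in MYBup and 2.018 ± 0.6861 in wt cells. Cldn4 was at 62.84 ± 13.89, 34.61 ± 3.645 and 110.5 ± 15.54 CPM in the same order. In lung3 against wt 2 rose and 2 fell (median 0.03), against 2.91% and 2.44% of all tested genes. Elf3, an epithelial transcription factor gene, rose by 0.97 (adjusted p = 0.0143), a call lost without wt replicate 1 or lung3 replicate 1 or 2 (adjusted p up to 0.0665). Esr1, the estrogen receptor gene, fell by 0.55 (adjusted p = 0.024), a call lost without wt replicate 1 or 2 or lung3 replicate 1 (adjusted p up to 0.0948). Read against the 26.9% and 5.36% of all tested genes called in these comparisons, the lists are described only by these counts.

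For the 5 keratins whose average log2 CPM reached 3, the genes with the most similar levels over the 12 libraries were sought among 9023 others. Krt14 was most similar to Adgrf5 (Pearson r = 0.966) and Ctsc (0.961), Krt8 to Tgfb3 (0.987) and Lypd3 (0.987), and Krt7 to Abhd17c (0.951) and Sc5d (0.944). Krt18 was most similar to Anxa4 (0.957) and Sdr39u1 (0.951), and Krt19 to Gm43064 (0.905) and Stxbp3 (0.888). No keratin was among these genes. The values are given as a description, since the libraries form 4 groups and the best of many candidates was taken.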

How the data were processed

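RNA came from RNeasy column preparations and was sequenced as Illumina TruSeq libraries, per the labels' protocols. The deposited table holds whole-number read counts for each gene, unscaled. The submitters' processing notes name STAR, edgeR and GRCm38. No source used here gives the counting tool, the versions or the annotation. All 2708 values of over 4 digits are rounded to 4 significant digits. Symbols and exon lengths came from GENCODE M21 and promoters from RefSeq.

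Genes were tested with the quasi-likelihood method of edgeR 4.0.16 under R 4.3.3 in a single fit of the 12 libraries, 1 coefficient for each group, after filterByExpr and TMM scaling. Benjamini-Hochberg adjustment ran over 11291 genes. CPM values use TMM factors, and each SE is the size of a log2 fold change over the root of its F statistic. DESeq2 1.42.0, limma voom 3.58.1, RLE factors, no filter, fits on the compared groups, replicate blocks and leaving out each library were alternatives. The scripts were tested on simulated data, and plots were drawn in matplotlib 3.10.9 (Python 3.11.15).

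The members and lists were chosen with earlier results of these data known. Named were all 10 members, every called other keratin, up to 2 called genes of each list with the largest change and an average log2 CPM of at least 1, the 2 genes most similar to each member, and Myb. Krt10 and Krt16, which the rule does not name, were added after their values were seen. Libraries within a group differed by more than sampling noise (chi-square per gene 2.24 to 36.1).

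Pairing was checked from the deviations from group means, since the labels state none. Same-number correlations were 0.329, 0.294 and 0.309 for lung3 and wt, where unlike numbers gave at most -0.0930. Deviations from a group mean cancel out within each gene, so positive same-number values push the unlike-number values down. The unlike-number values are therefore not separate evidence, and these correlations do not establish that lung3 and wt libraries are paired. Between MYBup and mock they were -0.191, -0.496 and 0.382. Unlike numbers there gave -0.541 to 0.636, the highest for mock replicate 2 with MYBup replicate 1. The numbers thus do not pair these libraries, and whether another order does was not tested. Between mock and wt same numbers gave -0.123, 0.114 and 0.0635.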

Additional observations from a re-analysis of the deposited data

Results flagged for a closer look

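The change of Krt7 differed between the 2 main comparisons, by -1.13 on the log2 scale (edgeR adjusted p = 0.000337, test of the difference). Krt7 was lower in 3 of 3 MYBup libraries than in any mock library. Between lung3 and wt the ranges overlapped, with lung3 libraries at 589.5 to 740 CPM and wt libraries at 462 to 619.5 CPM. The main fit did not call Krt7 in lung3 against wt (edgeR adjusted p = 0.1). At each replicate number lung3 was higher (740 and 517, 589.5 and 462, 676 and 619.5 CPM), but the labels do not state that these libraries are paired. The replicate block on these 6 libraries, chosen after seeing the data, called Krt7 higher in lung3 (log2 fold change 0.33, edgeR adjusted p = 0.00684). The difference lay between -1.25 and -1.04 under the 18 alternatives run for it.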

How the results depend on the processing

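The calls of Krt7, Krt14 and Krt15 in MYBup against mock, of Krt14 and Krt17 in lung3 against wt, of Krt8 and Krt14 in mock against wt and of Krt7, Krt8 and Krt15 in MYBup against wt held under all 20 alternatives. Over the 7 tested members, leaving out Krt15 where lung3 enters, 609 alternative values kept direction and call, 2 lost and 19 gained a call and 10 turned direction, none of the latter called. With 3 libraries per group, levels of a few counts limit Krt15 and Krt17. Leaving out 1 library gave 2046 to 3386 genes called in MYBup against mock (3038 in all libraries), 237 to 853 in lung3 against wt (605), 2 to 5 keratins in mock against wt (3) and 1 to 2 for the difference of the changes (1). The lowest counts in lung3 against wt came without wt replicate 1 (237), wt replicate 2 (268) and lung3 replicate 2 (294). DESeq2 called 919 genes there. The replicate block on 6 libraries, chosen after seeing the data, called 1985 genes and 4 keratins in lung3 against wt and 1479 genes in MYBup against mock, where the numbers do not pair the libraries. The replicate block of 12 libraries and limma voom each called 2 keratins in the difference of the changes. Without mock replicate 3 and lung3 replicate 3 together, also chosen after seeing the data, that difference called 2 keratins, Krt14 had 0.596 in it, and mock against wt had -0.0425 for Krt19, -0.0267 for Krt10 and -0.0368 for Myb. Values that turned direction when 1 library was left out ranged from -0.0128 to 0.0428 for Krt8 and -0.121 to 0.281 for Krt10 in MYBup against mock, from -0.0433 to 0.137 for Krt19, -0.0273 to 0.264 for Krt10 and -0.0375 to 0.257 for Myb in mock against wt, from -0.0879 to 0.604 for Krt14 in MYBup against wt and from -0.475 to 0.314 for Krt14 in the difference of the changes. The cause of these differences was not tested.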

Other observations

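Of 24 cornified envelope genes, the products of terminally differentiating keratinocytes, 4 were tested. In MYBup against mock 1 rose and 2 fell (median log2 fold change -0.49), where 14.3% of all tested genes were called higher and 12.6% lower. The 2 were Sbsn, the gene of suprabasin (-2.23, edgeR adjusted p = 0.00238), and the kallikrein gene Klk10 (-0.74, adjusted p = 0.0017). The level of Sbsn was 3.68 ± 1.86 CPM in mock, 0.767 ± 0.281 in MYBup, 1.32 ± 0.230 in wt and 4.33 ± 1.35 in lung3 cells (SD, n = 3). In lung3 against wt Sbsn rose by 1.69 (adjusted p = 0.0219) and was the only 1 of the 4 called (median -0.10), where 5.36% of all tested genes were. That call ended without any 1 wt replicate or without lung3 replicate 1 or 2, with adjusted p up to 0.0797.

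Of 19 transcription factor genes that act on stratified and stress keratins, 16 were tested. In MYBup against mock 2 rose and 4 fell (median 0.003), against the same 14.3% and 12.6% of all tested genes. Among the 4 were Klf4 (log2 fold change -0.56, edgeR adjusted p = 0.00764) and Sox9 (-0.38, edgeR adjusted p = 0.00804). Mock cells had the highest mean of both genes, and the MYBup means lay above those of wt cells. Klf4 was at 18.66 ± 1.305 CPM in mock, 12.65 ± 1.436 in MYBup and 9.511 ± 1.402 in wt cells. Sox9 was at 76.75 ± 4.885, 58.97 ± 5.191 and 46.58 ± 1.033 CPM in the same order. In lung3 against wt 0 rose and 3 fell (median -0.22), where 2.91% of all tested genes were called higher and 2.44% lower, among them the AP-1 gene Fosl1 with -0.49 (adjusted p = 0.00795). Sox9 had -0.40 there (adjusted p = 0.0268) and lost the call without any 1 wt replicate or without lung3 replicate 1 or 2 (adjusted p up to 0.0916).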
